A study of Mus musculus with 8 samples.

Results

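The core circadian clock genes are the 10 genes Per1, Per2, Per3, Cry1, Cry2, Arntl, Clock, Npas2, Nr1d1 and Nr1d2, chosen by symbol among the 24411 genes of the deposited table. They were compared in hepatocytes, the cells that make up most of the liver, between mice whose Taf2 gene was conditionally knocked out in hepatocytes alone and wild-type mice, 4 libraries of each, harvested 2 days after plating. Taf2 encodes a subunit of TFIID, the complex that recognises core promoters for RNA polymerase II. Every library is labelled liver hepatocytes of Mus musculus, and no treatment is named. The Cre driver, the alleles of the wild-type mice, the age of the mice, the hour of isolation or harvest and any synchronising of the cultures are not stated in the labels used here. The labels also do not say that replicates came from separate animals or cultures, so p-values measure the spread between these libraries, which may be technical.

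The clock is a transcriptional feedback loop that runs in most cells and that times much of liver metabolism. The activators ARNTL (BMAL1) and CLOCK, or its paralog NPAS2, bind E-box sequences as a dimer and drive the Per, Cry and Nr1d genes. PER and CRY proteins return to the nucleus and block that dimer, while the nuclear receptors NR1D1 and NR1D2 (REV-ERB alpha and beta) repress Arntl, Clock and Npas2 in a second loop. Activator and repressor transcripts therefore peak at different times of day in the intact liver. In a culture whose cells are not in phase, a level is an average over all phases.

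All 10 genes differed between the genotypes. The 7 repressor genes were higher in the knockout and the 3 activator genes were lower. Per2 moved most, to 3.26 times its wild-type level (95% interval 2.95 to 3.59), followed by Nr1d1 at 2.25 times (1.95 to 2.61). The smallest rise was that of Per1, at 1.27 times (1.18 to 1.37). The falls left 75.2% of the wild-type level of Arntl, 76.9% of Clock and 61.02% of Npas2. The 10 calls of 10 stand beside a broad change of the transcriptome. Of 12122 genes tested, 61.4% passed the same edgeR threshold (adjusted p under 0.05), 30.2% as rises and 31.2% as falls. The values of the 2 genotypes did not overlap for any of the 10, against 54.7% of all genes tested (26.9% higher and 27.8% lower in the knockout). The median size of change, whatever its direction, was 0.69 on the log2 scale for the 10 genes and 0.22 for all genes tested. With direction, the medians were 0.53 and -0.0035.

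**Figure D1:**
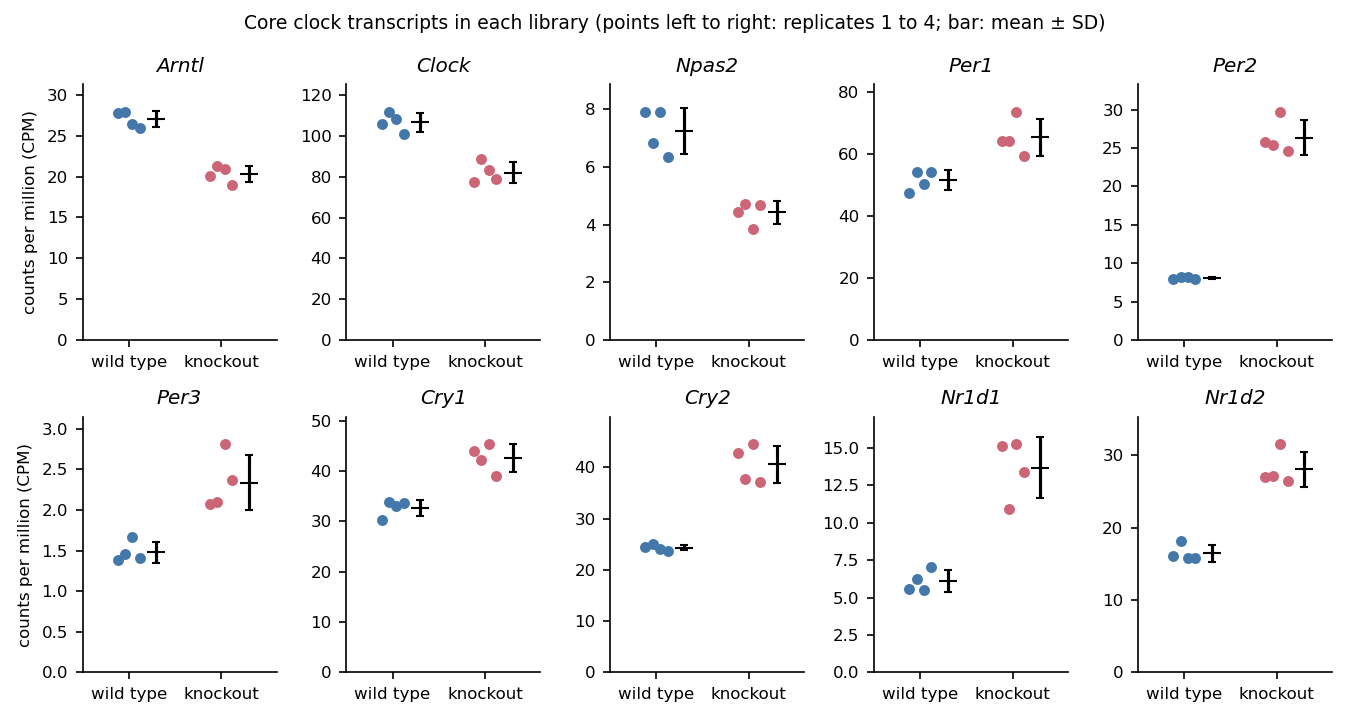
Levels of the 10 core clock transcripts as CPM (y axis from 0) in each wild-type (blue) and knockout (red) library, with the mean ± SD of 4 libraries beside the points. The knockout points lie below the wild-type points for Arntl, Clock and Npas2 and above them for the other 7 genes, with no overlap in any panel.

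The libraries held 18947059 to 23933589 estimated counts. Taf2 had 865 to 979 counts in the wild-type and 269 to 329 in the knockout libraries (log2 fold change -1.66, SE 0.061), so every library matched its label. All 8 hepatocyte markers were detected, of which 4 were higher in the knockout, 3 were lower (Apoa1, Cps1 and Cyp3a11) and 1 did not pass. Alb, the albumin gene, made up 3.66% to 4.03% of each wild-type and 5.22% to 5.86% of each knockout library. Markers of other liver cells moved with the genotype. All 11 macrophage markers tested were higher in the knockout, with summed levels in CPM, counts scaled to library size, of 87.7 to 117 in the wild type and 237 to 266 in the knockout (median log2 fold change 2.53). Endothelial markers were higher in 9 of 10 cases (65.0 to 72.2 against 163 to 171 CPM, median 1.65) and stellate cell and fibroblast markers in 10 of 11 (65.7 to 70.4 against 141 to 156 CPM, median 2.42). Single genes made up most of the macrophage and stellate cell sums, Cd68 with means of 84.1 and 172 CPM (log2 fold change 1.04) and Reln with 61.7 and 102 CPM (log2 fold change 0.72), so that these sums differed less than the median marker. Of 5 cholangiocyte markers 2 rose and 3 fell (136 to 151 against 171 to 199 CPM). The defining genes ranged from scarce to levels like those of several core clock genes. The macrophage gene Adgre1 averaged 0.31 CPM in wild-type and 1.81 CPM in knockout libraries, the Kupffer cell gene Clec4f 1.64 and 10.3 CPM, the endothelial gene Pecam1 6.93 and 28.3 CPM, and the sinusoidal endothelial gene Stab2 14.2 and 23.8 CPM. The stellate cell gene Lrat averaged 0.75 and 2.65 CPM, and Des 0.30 and 0.59 CPM (edgeR adjusted p = 0.051). The cholangiocyte gene Krt19 averaged 19.5 and 13.8 CPM. Epcam had 16 and 23 counts in all 4 libraries of each genotype, and Cftr had 0 and 1. The clock runs in those cells as well, and their part in the differences below was not tested. In such bulk samples, fewer cells of a type and less RNA per cell cannot be told apart.

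The activators were the lower group. Arntl encodes the partner of CLOCK and NPAS2 in the activator dimer. It stood at 27.8, 27.9, 26.4 and 26.0 CPM in wild-type replicates 1 to 4 and at 20.02, 21.3, 20.9 and 19.0 CPM in the knockout replicates. The highest knockout value lay well under the lowest wild-type one. This was a log2 fold change of -0.41 (SE 0.056, edgeR adjusted p = 2.55e-06). The gene lies on chromosome 7 from 113207465 to 113314126 (build mm10, plus strand). Its exons share 33 bases, 0.439% of their length, with a transcript of the opposite strand, and without a known strand setting reads there cannot be told apart.

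Clock, whose protein is also a histone acetyltransferase, stood at 106, 112, 108 and 101 CPM in the wild type and at 77.2, 88.8, 83.2 and 78.97 CPM in the knockout. Knockout replicate 2 came nearest to the wild-type libraries without reaching them. Clock thus differed by -0.38 on the log2 scale (SE 0.044, edgeR adjusted p = 3.01e-07). Clock lies on chromosome 5 from 76209868 to 76304792 (minus strand).

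Npas2, the paralog that can stand in for CLOCK in the dimer, stood at 7.90, 6.80, 7.88 and 6.33 CPM in the wild type and 4.44, 4.70, 3.85 and 4.69 CPM in the knockout. Wild-type replicates 1 and 3 were the high ones, and all knockout values were lower than any of the 4. The log2 fold change of -0.71 (SE 0.10, edgeR adjusted p = 6.75e-06) was the steepest fall among the 10 genes. It rests on 135 to 182 counts in each wild-type library and 89 to 105 in each knockout library. Npas2 lies on chromosome 1 from 39193731 to 39363236 (plus strand).

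The promoters are shown here for the letters that clock factors are known to bind, whichever way a gene changed. RefSeq promoter windows of build GRCm38.p6, each from 250 bases before to 50 bases after a transcript's start, were given for 9 of the 10 genes in 13 windows, the exception being Per2. The windows were searched on both strands. The E-box CACGTG was found for Per1 and Cry1, in 2 of the 13 windows, and in 7.15% of all 32851 windows. CACGTT, a variant known as the E'-box, was found for Cry1, Cry2 and Nr1d1, in 3 of the 13 windows, and in 4.68% of all windows. The D-box TTATGTAA, which PAR bZIP factors such as DBP and TEF bind, was found 2 times for Per3, in 1 of the 13 windows, and in 0.938% of all windows. The sequence AGGTCA is the core of elements bound by ROR and REV-ERB receptors. It was found for Arntl, Clock, Nr1d2 and Per1, in 4 of the 13 windows, and in 16.3% of all windows. No window of the 9 genes held the full cAMP response element TGACGTCA (1.79% of all windows) or TATAAA, the TATA box letters (13.6% of all windows). Matches upstream of the start are all printed, and that of Arntl, downstream of it, is not. Stretches run 5′ to 3′ on the gene's strand, with the matched letters in capitals. A match on the opposite strand reads AACGTG for CACGTT and TGACCT for AGGTCA. None of the stretches overlaps an annotated exon.
Per1, chr11:69098753-69098832, E-box and AGGTCA: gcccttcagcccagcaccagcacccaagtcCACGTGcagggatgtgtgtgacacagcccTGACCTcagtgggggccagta
Cry1, chr10:85185095-85185154, E'-box and E-box: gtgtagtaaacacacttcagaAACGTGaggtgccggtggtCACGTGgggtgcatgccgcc
Cry2, chr2:92434206-92434265, E'-box: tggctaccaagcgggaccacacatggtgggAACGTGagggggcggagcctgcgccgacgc
Nr1d1, chr11:98775378-98775437, E'-box: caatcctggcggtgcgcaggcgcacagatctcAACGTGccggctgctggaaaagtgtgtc
Per3, chr4:151044806-151044880, D-boxes: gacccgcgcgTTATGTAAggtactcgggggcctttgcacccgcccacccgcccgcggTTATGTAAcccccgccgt
Nr1d2, chr14:18239154-18239213, AGGTCA: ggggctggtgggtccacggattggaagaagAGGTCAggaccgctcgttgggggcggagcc
Clock, chr5:76303592-76303651, AGGTCA: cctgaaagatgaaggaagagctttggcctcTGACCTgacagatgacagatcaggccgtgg
These are matches of letters, and no binding was measured. E-box or E'-box letters stood in the windows of 4 of the genes that rose and not in those of Per3 and Nr1d2, which also rose, and AGGTCA stood in windows of genes that rose and of genes that fell.

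Per2, which encodes a scaffold of the repressor complex, stood at 7.98, 8.26, 8.19 and 7.96 CPM in the wild type and at 25.7, 25.4, 29.7 and 24.6 CPM in the knockout. The wild-type values lay within a coefficient of variation of 1.85%, and every knockout library stood far above all 4 of them. Per2 thus rose by 1.70 on the log2 scale (SE 0.072, edgeR adjusted p = 7.5e-14), the rise of rank 443 among the 12122 genes tested. Per2 lies on chromosome 1 from 91415982 to 91459324 (minus strand).

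Per1, which responds quickly to hormonal and cAMP signals, stood at 47.5, 54.2, 50.5 and 54.3 CPM in the wild type and 64.3, 64.3, 73.7 and 59.3 CPM in the knockout. The gap between the highest wild-type and the lowest knockout library was 54.3 against 59.3 CPM. Per1 rose by 0.34 on the log2 scale (SE 0.056, edgeR adjusted p = 2.55e-05). Per1, the gene with the E-box printed above, lies on chromosome 11 from 69095217 to 69109960 (plus strand).

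Per3, whose loss leaves rhythms largely intact, had the fewest counts of the 10, with 30 to 32 counts in each wild-type library and 42 to 65 in each knockout library. Its levels were 1.39, 1.46, 1.67 and 1.41 CPM in the wild type and 2.07, 2.10, 2.81 and 2.37 CPM in the knockout. The log2 fold change of 0.67 had the widest error of the 10 (SE 0.17, edgeR adjusted p = 0.00168). Per3, the gene with the D-boxes printed above, lies on chromosome 4 from 151003652 to 151044665 (minus strand).

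Cry1 and Cry2 encode the cryptochromes, which bind the activator dimer and silence it. Cry1 stood at 30.3, 33.8, 33.04 and 33.6 CPM in the wild type and 44.02, 42.2, 45.3 and 39.03 CPM in the knockout (log2 fold change 0.39, SE 0.053, edgeR adjusted p = 2.71e-06). Cry2 stood at 24.4, 25.1, 24.1 and 23.8 CPM in the wild type and 42.7, 37.8, 44.5 and 37.2 CPM in the knockout (log2 fold change 0.74, SE 0.059, edgeR adjusted p = 1.16e-09). Cry2 was tight in the wild type and spread over a wider range in the knockout, where replicates 1 and 3 were the high ones. Cry1 lies on chromosome 10 from 85131700 to 85185064 and Cry2 on chromosome 2 from 92403646 to 92434043, both on the minus strand. The exons of Cry2 share 295 bases, 4.67% of their length, with a transcript of the opposite strand, and without a known strand setting reads there cannot be told apart.

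Nr1d1 encodes REV-ERB alpha, a haem-binding receptor that recruits a corepressor to the genes of the activators. It stood at 5.55, 6.27, 5.48 and 7.07 CPM in the wild type and 15.2, 10.9, 15.3 and 13.4 CPM in the knockout. Knockout replicate 2 was the lowest of its group and still exceeded every wild-type library. Nr1d1 rose by 1.17 on the log2 scale (SE 0.11, edgeR adjusted p = 8.93e-09). Nr1d1 lies on chromosome 11 from 98767932 to 98775333 (minus strand), where 263 bases of its exons (8.55%) overlap exons of Thra, the thyroid hormone receptor alpha gene, on the other strand. Thra itself went from 3.797 ± 0.58 to 2.08 ± 0.33 CPM (SD, n = 4 each), opposite to Nr1d1. Without a known strand setting, reads from the shared bases cannot be told apart.

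Nr1d2 encodes REV-ERB beta, which shares the targets of REV-ERB alpha. It stood at 16.01, 18.1, 15.8 and 15.8 CPM in the wild type and 27.04, 27.1, 31.5 and 26.4 CPM in the knockout. Wild-type replicate 2 and knockout replicate 3 stood above the other libraries of their groups. Its rise was 0.77 on the log2 scale (SE 0.068, edgeR adjusted p = 5.2e-09). Nr1d2 lies on chromosome 14 from 18204054 to 18239127 (minus strand).

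Per kilobase of transcript, which allows genes to be compared, Per1, Clock and Cry1 led in the wild type with means of 11.05, 10.9 and 10.8 CPM per kilobase, and their libraries overlapped. Arntl followed at 9.28, Cry2 at 6.12, Nr1d2 at 3.52, Nr1d1 at 2.24, Npas2 at 1.71, Per2 at 1.39 and Per3 at 0.25 CPM per kilobase, each apart from its neighbours in every library. In the knockout the order was Cry1 (14.1), Per1 (14.001), Cry2 (10.2), Clock (8.42), Arntl (6.98), Nr1d2 (6.01), Nr1d1 (5.03), Per2 (4.52), Npas2 (1.04) and Per3 (0.39 CPM per kilobase). There Cry1 overlapped Per1, Arntl overlapped Nr1d2, and Nr1d1 overlapped Per2. Per kilobase, Cry2 thus stood below both activators Arntl and Clock in each wild-type library and above both in each knockout library. Per2, under Npas2 in the wild type by this measure, was over it in the knockout. These orders rest on the longest matched transcript of each gene. In CPM without length, Clock stood above Cry2 and Per2 above Npas2 in every library of both genotypes.

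**Figure D2:**
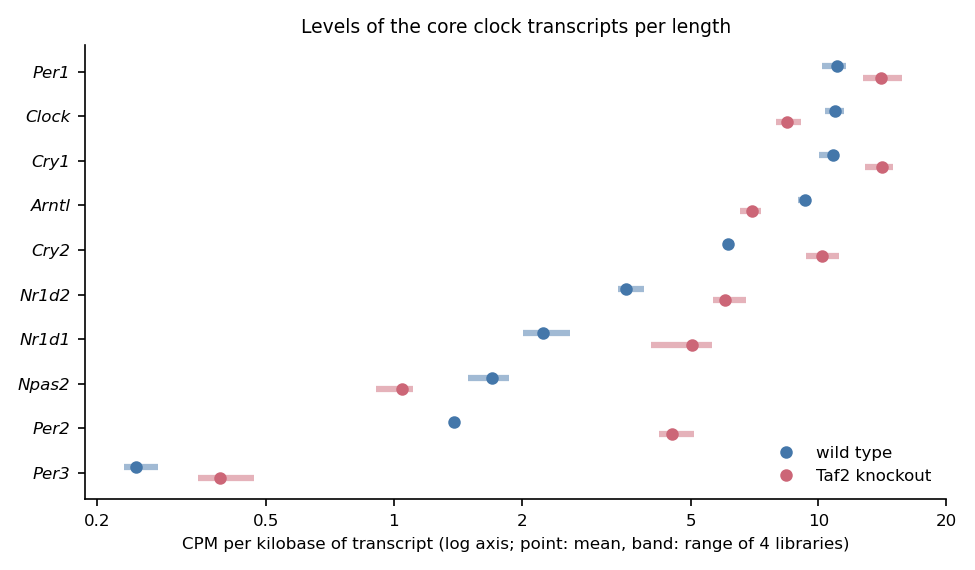
Mean level (point) and range over 4 libraries (band) of each core clock transcript in CPM per kilobase of transcript on a log axis, wild type in blue and knockout in red, ordered by the wild-type mean. Cry2 went from 6.12 to 10.2 and Per2 from 1.39 to 4.52, while Clock went from 10.9 to 8.42 CPM per kilobase.

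Paralogs within the loop were compared with each other inside each library. The ratio of CPM within a library does not depend on how libraries are scaled, and the ratios printed are of this kind. The log2 differences, their SE and the tests used CPM plus 0.5. They therefore depend a little on scaling and are not the log2 change of the printed ratios. The ratio of Per1 to Per2 CPM was 5.95, 6.56, 6.16 and 6.82 in the wild-type libraries and 2.50, 2.53, 2.48 and 2.41 in the knockout libraries. This ratio was very even within each genotype and differed by -1.30 on the log2 scale (SE 0.046). The Per2 to Per3 ratio went from a mean of 5.50 to 11.4, a log2 difference of 1.13 (SE 0.066). The ratio of Cry1 to Cry2 went from 1.34 to 1.05, a log2 difference of -0.34 (SE 0.050). For these 3 pairs the genotypes did not overlap, with or without the 0.5 CPM. The exact two-sided permutation test gave p = 0.029 for each, the smallest that 4 against 4 libraries allow. Adjusted over the 6 pairs compared, it was 0.057 by the exact permutation test, above the threshold. The remaining pairs overlapped with 0.5 CPM added. Without it, the Npas2 to Clock ratios did not overlap, at 0.0609 to 0.0745 in the wild type and 0.0462 to 0.0594 in the knockout. Npas2 to Clock went from 0.068 to 0.054 (log2 difference -0.27, SE 0.10), Nr1d1 to Nr1d2 from 0.37 to 0.49 (0.35, SE 0.13) and Per1 to Per3 from 35.1 to 28.2 (-0.18, SE 0.093). Their exact permutation p-values were 0.057, 0.057 and 0.11, or 0.069, 0.069 and 0.11 adjusted over the 6 pairs. With a pseudocount of 2 CPM in place of 0.5 the Per1 to Per3 difference changed sign, to 0.013.

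**Figure D3:**
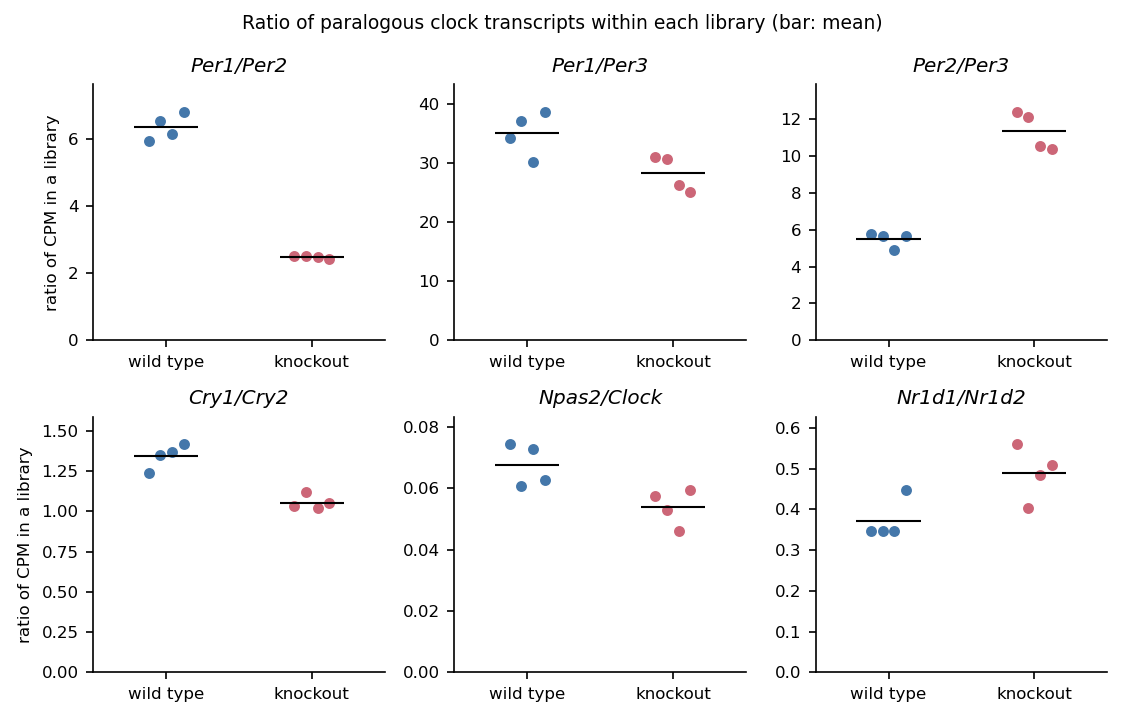
Ratio of CPM of each pair of paralogs within a library (y axis from 0), wild type in blue and knockout in red, with the mean as a bar. The ratio of Per1 to Per2 stands between 5.95 and 6.82 in the wild type and between 2.41 and 2.53 in the knockout.

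The 4 knockout libraries were not interchangeable. Replicate 3 had the highest level of all 7 repressor genes, and replicate 2 the highest of all 3 activator genes. For Nr1d1 replicates 3 and 1 were nearly tied (15.3 and 15.2 CPM), as were replicates 2 and 4 for Npas2 (4.70 and 4.69 CPM). Among all genes that rose, 41.6% were highest in knockout replicate 3, and among all genes tested 26.7%. Knockout replicate 2 was the highest for 26.2% of all genes tested and 19.1% of all genes that rose. Its share among the genes that fell, the like comparison for the activators, was not computed. In the wild type, replicate 2 was the highest library for 6 of the 10 genes, against 27.3% of all genes tested. The spread within a genotype, as a coefficient of variation, ran from 1.85% for Per2 to 12.2% for Nr1d1 in the wild type, and from 5.04% for Arntl to 14.7% for Nr1d1 in the knockout. Without knockout replicate 3 the log2 fold changes of all 10 genes kept their direction and their call. So they did without any other single library.

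Other genes of the pathway were taken from 5 lists. Of 10 tested genes of the second loop and of clock output, 6 rose and 1 fell (median 0.50 on the log2 scale), where 61.4% of all genes tested passed. Bhlhe40, which encodes the E-box repressor DEC1, rose from 221 ± 6.54 to 339 ± 7.76 CPM. Tef, a D-box activator, rose from 13.99 ± 0.45 to 27.3 ± 0.93 CPM, and Ciart, which encodes the repressor CHRONO, from 0.88 ± 0.078 to 3.81 ± 0.76 CPM. Rora, whose protein activates Arntl at the elements where REV-ERB represses it, fell from 92.2 ± 6.15 to 72.8 ± 2.42 CPM (SD, n = 4 each). The number that rose was 8 with upper-quartile scaling, with no low-count filter, or without knockout replicate 2 or 4. It was 7 with a stricter filter on low counts. Without knockout replicate 2 the number that fell was 2.

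Of 11 genes listed by name as outputs driven through E-boxes, which were not checked gene by gene here, 7 rose and 2 fell (median 0.45 on the log2 scale). Nampt, the rate-limiting enzyme of NAD salvage, rose from 79.6 ± 0.99 to 155 ± 6.08 CPM, the transcription factor gene Klf10 from 5.35 ± 0.67 to 17.6 ± 1.24 CPM, and the cell cycle kinase gene Wee1 from 11.9 ± 1.13 to 27.7 ± 2.36 CPM. Por, which encodes the electron donor of the cytochromes P450, rose from 617 ± 9.17 to 926 ± 63.7 CPM. Leo1 and Tsku fell, by 0.17 and 0.18 on the log2 scale. These 9 calls of 11 compare with 61.4% of all genes tested.

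Of 13 kinases and phosphatases that modify clock proteins 1 rose, 3 fell and 9 did not pass, with a median log2 fold change of 0.0043. These 4 calls of 13 stand beside 61.4% of all genes tested. Csnk1e, which encodes the casein kinase 1 epsilon that phosphorylates PER, rose from 29.4 ± 1.05 to 36.3 ± 1.19 CPM. Prkaa2, a catalytic subunit of AMPK, which marks CRY for degradation, fell from 91.3 ± 8.08 to 66.7 ± 2.89 CPM, and the phosphatase gene Ppp5c from 62.9 ± 1.15 to 50.7 ± 1.06 CPM. Csnk2b, a regulatory subunit of casein kinase 2, had a log2 fold change of -0.12 (SE 0.044, edgeR adjusted p = 0.030), and its call was lost in 8 of 16 alternatives at edgeR or DESeq2 adjusted p from 0.055 to 0.11 (upper-quartile scaling, DESeq2, the stricter filter, and without wild-type replicate 1, 3 or 4 or knockout replicate 1 or 2). Ppp1ca stood at 218 ± 9.43 and 206 ± 4.07 CPM (edgeR adjusted p = 0.063), and it passed with no low-count filter (0.049) and without wild-type replicate 2 (0.016). The number that rose was 4 with upper-quartile scaling. It was 2 with a stricter filter on low counts, or when wild-type replicate 2 or 4, or knockout replicate 2 or 4, was left out.

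Among 8 genes for ubiquitin ligases and a deubiquitinase, 2 rose and 3 fell (median -0.0016), near the 61.4% of all genes tested that passed. Siah2, whose protein targets REV-ERB alpha, rose by 0.37 (SE 0.060). Huwe1, whose protein also targets REV-ERB alpha, fell by 0.33 (SE 0.043) and Btrc, whose protein targets PER, by 0.26 (SE 0.078). Fbxl21 fell by 0.81 (SE 0.28) at 16 to 19 counts in each wild-type and 7 to 14 in each knockout library, and its call was lost with DESeq2 (adjusted p = 0.053) and without knockout replicate 1 (edgeR adjusted p = 0.073). Among 11 cofactors 4 rose and 3 fell (median -0.0075), also near that 61.4%. Ncor1, the corepressor that REV-ERB recruits, fell from 170 ± 8.37 to 126 ± 4.56 CPM, and Timeless from 5.26 ± 0.28 to 3.93 ± 0.53 CPM. Hdac3, the deacetylase of the same complex, fell by 0.097 (SE 0.038), a call lost in 8 of 16 alternatives at edgeR or DESeq2 adjusted p from 0.054 to 0.12 (upper-quartile scaling, DESeq2, the stricter filter, and without wild-type replicate 1 or 3 or knockout replicate 1, 2 or 4). Sirt1, an NAD-dependent deacetylase, rose from 14.9 ± 0.86 to 21.1 ± 2.27 CPM. Wdr5 rose by 0.29 (SE 0.037) and Kdm5a by 0.16 (SE 0.041). Sfpq rose by 0.099 (SE 0.035), and its call was lost without wild-type replicate 3 (edgeR adjusted p = 0.054) and without knockout replicate 1 (0.056). The largest edgeR adjusted p among the calls named in these lists was 0.032.

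**Figure D4:**
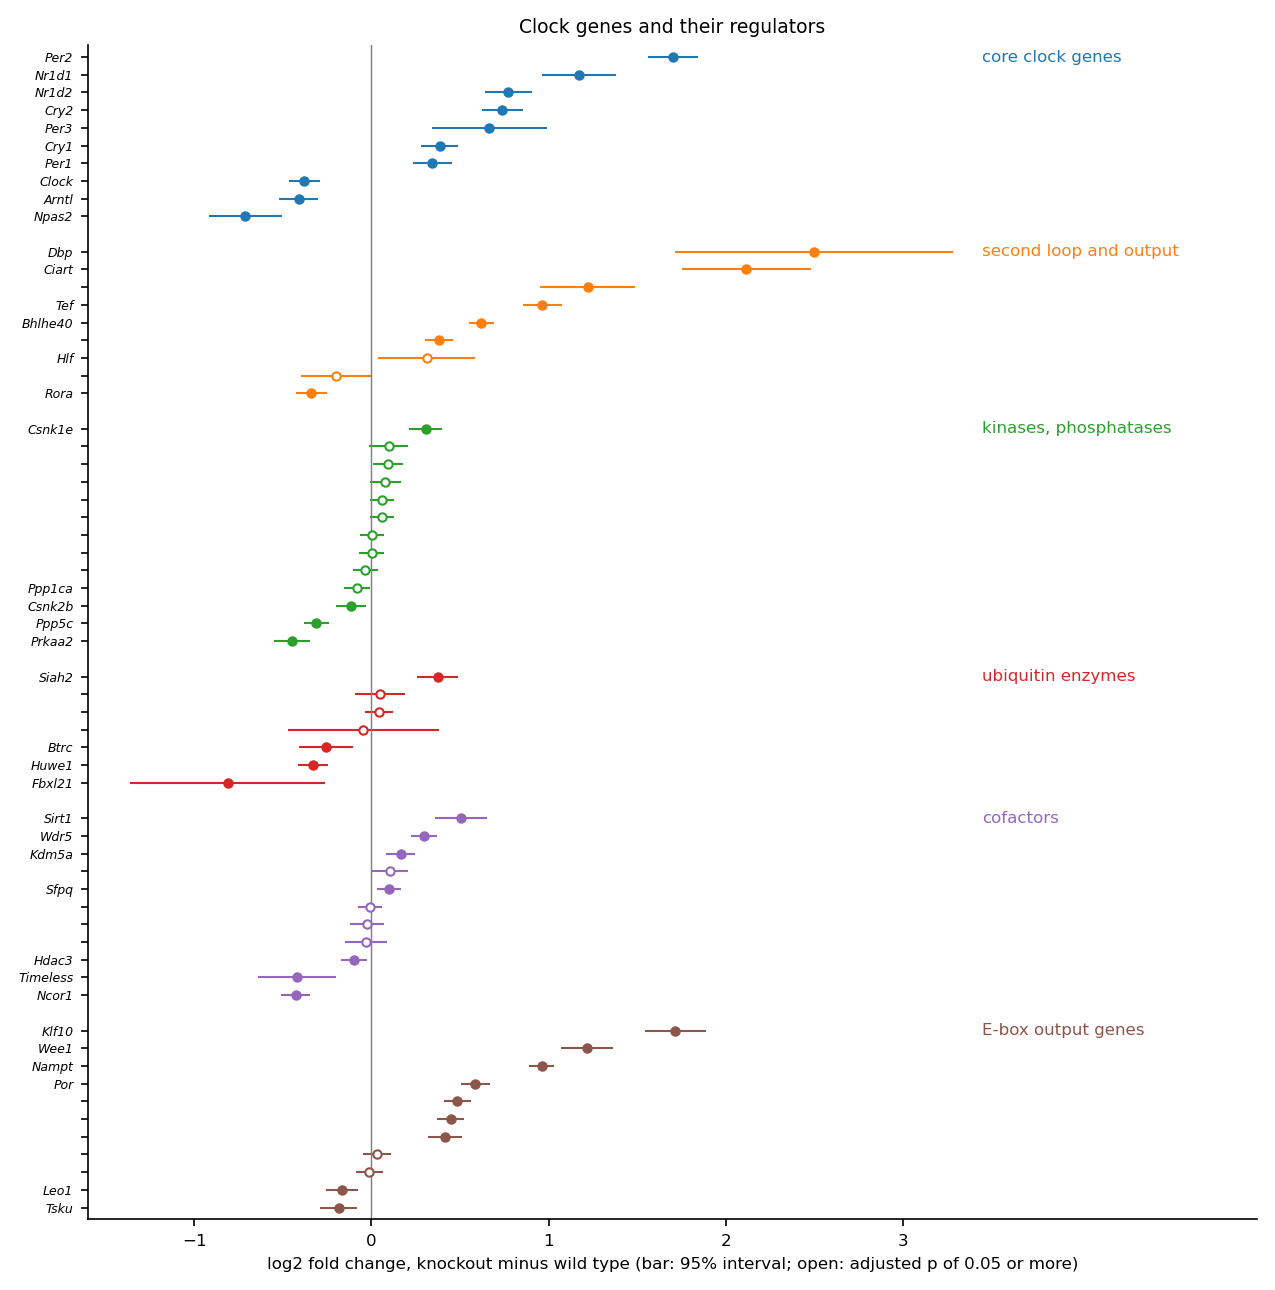
Log2 fold change, knockout minus wild type, of the 10 core clock genes and of genes of the 5 further lists, with an approximate 95% interval from the SE and open points for genes that did not pass. Only genes named in the text carry a name, and some genes of the lists are not drawn. The kinases and phosphatases lie between -0.45 and 0.31, while the core genes run from -0.71 to 1.70.

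Per2, the core gene with the largest change, was compared with the 9445 other genes of at least 5 CPM for the likeness of its log2 level over the 8 libraries. The nearest were Ugdh, the UDP-glucose dehydrogenase gene, Nampt, and Cd93, which endothelial and myeloid cells express, each with a Pearson r of 0.999. With 4 libraries at each of 2 levels, such a coefficient holds the difference between the genotypes and is given as a description. Ugdh rose by 1.04 and Cd93 by 1.54 on the log2 scale.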

How the data were processed

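RNA-seq of 8 libraries was analysed. The authors deposited expected counts per gene, made with RSEM on build mm10 per the submitters' processing notes. Its version, the aligner and the strand setting are not given in the sources. Of the values, 2.85% were not whole (beyond 0.005), none of them in the 10 core genes. Columns that match no sample (8) were left out. Expected counts were rounded. The low-count filter was filterByExpr of edgeR (minimum count 10, minimum total 15), and 12122 genes passed, all 10 core genes among them. TMM scaling and edgeR's quasi-likelihood test followed, knockout against wild type, with Benjamini-Hochberg adjustment over all genes and a threshold of 0.05. CPM use TMM-scaled library sizes. The SE is the size of the log2 fold change over the root of the F statistic. Library totals and each gene's counts set the precision. Transcript lengths and positions come from GENCODE M21 (same build), with the longest transcript matched to the table's RefSeq accessions.

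Log2 differences of paralog ratios used CPM plus 0.5 and an exact permutation test, and the ratios printed used CPM alone. Replicates were distinct libraries, whose chi-square per degree of freedom was 3.16 to 8.60 between pairs. Tools were edgeR 4.0.16, DESeq2 1.42.0 and limma 3.58.1 in R 4.3.3. The fit was also run on simulated counts with 1 common dispersion. It recovered 73.4% of genes changed 1.25-fold and all 62 changed 2-fold, with 5 false calls. Far fewer genes changed there than in these data, so the simulation does not test a change this broad. The genes and lists were chosen with earlier results of these data known. Named genes are the 10 core genes, Taf2, defining markers and, from each other list, up to 3 called genes per direction with the smallest adjusted p and the gene of highest mean CPM, plus the 3 genes most like the core gene of largest change. Thra, Cd68, Reln, Apoa1, Cps1, Cyp3a11 and Cftr, and Dbp and Hlf in the closing section, were named outside this rule, after values were seen. Some genes of the lists are counted but not reported here by name.

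The alternatives tried were upper-quartile or RLE scaling, DESeq2, limma-voom, no filter, a minimum count of 50, thinning to the smallest library, a replicate block, leaving out each library, and pseudocounts of 0.1 and 2 CPM for the ratios.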

Additional observations from a re-analysis of the deposited data

Results flagged for a closer look

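In 120 groups of 4 libraries checked, 7 held a library far from the other 3, and chance alone would set apart about 1 group in 20. Nr1d2 was at 18.1 CPM in wild-type replicate 2 against 15.8 to 16.01 in the others, and at 31.5 CPM in knockout replicate 3 against 26.4 to 27.1 in the others. The Nr1d1 to Nr1d2 ratio was 0.45 in wild-type replicate 4, where the other 3 lay at 0.35. The Per2 to Per3 ratio was 4.91 in wild-type replicate 3 and 5.67 to 5.75 in the others. Siah2 was at 19.07 CPM in wild-type replicate 4 against 17.7 to 17.9, and Leo1 in the same library at 34.3 CPM against 35.4 to 35.5. Dbp was at 0.34 CPM in wild-type replicate 2 against 0.16 to 0.19 in the others.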

How the results depend on the processing

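All 159 alternative values of the 10 core genes kept their direction and call, with Per3 absent from the stricter filter, under which 6 core genes rose and 3 fell. Over 38 genes (the core genes, Taf2 and those the naming rule took from the 5 other clock lists), 22 of 606 alternative values crossed the threshold and 0 of these changed direction. All genes called ranged from 3336 to 4023 rises and from 3280 to 3981 falls. Replicate numbers did not pair the libraries (correlations of same-numbered deviations from -0.069 to 0.011). With the replicate block 7 core genes rose and 3 fell, as without it. Kinases and phosphatases that rose numbered 4 with upper-quartile scaling, 2 with the stricter filter and 1 to 2 with a library left out. Second-loop rises numbered 6 to 8 over the alternatives, against 6, and falls 1 to 2 with a library left out, against 1. Scaling moved the median of all genes by less than 0.1 (log2). For ratios, a pseudocount of 0.1 CPM gave log2 differences of -1.35 (Per1 to Per2), 1.07 (Per2 to Per3), -0.35 (Cry1 to Cry2) and -0.32 (Npas2 to Clock), each at an exact permutation adjusted p = 0.043. The Per1 to Per3 difference reversed to 0.013 with 2 CPM. With a library left out the differences ran from -1.34 to -1.27 (Per1 to Per2), 1.09 to 1.17 (Per2 to Per3), -0.38 to -0.32 (Cry1 to Cry2), -0.32 to -0.21 (Npas2 to Clock), 0.28 to 0.43 (Nr1d1 to Nr1d2) and -0.23 to -0.12 (Per1 to Per3). The cause was not tested. Markers, Thra, Dbp, Hlf, Ugdh and Cd93 were not run under the alternatives. Low counts limit genes such as Per3, Fbxl21, Ciart, Dbp and the scarce markers.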

Other observations

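Dbp, the PAR bZIP gene that is among the strongest rhythmic outputs in liver, was barely detected in these cultures. It had 3 to 7 counts in each wild-type library and 11 to 44 in each knockout library (log2 fold change 2.50, SE 0.40, edgeR adjusted p = 1.93e-05). Knockout replicate 3 held the most, at 44 counts, and knockout replicate 2 the fewest, at 11. These are the libraries in which the repressor genes and the activator genes, respectively, were highest, with near ties for Nr1d1 and Npas2. The related gene Hlf averaged 3.96 CPM in wild-type and 4.86 CPM in knockout libraries (edgeR adjusted p = 0.059).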
